A study of Mus musculus with 12 samples.

Results

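The 9 genes described here encode ion channels and calcium-handling proteins of the pancreatic beta cell. They are Abcc8 and Kcnj11, which form the ATP-sensitive potassium channel, Cacna1c, Cacna1d and Cacna2d1, which encode voltage-gated calcium channel subunits, the cation channel Trpm5, the calcium-binding proteins Calb1 and Scgn, and the calcium pump Atp2a3. Members were found by gene symbol in the array annotation, and where a gene had several probe sets its row was chosen by the measured signal, as the probe set with the highest mean over 12 arrays. All 9 were measured, among 19938 genes in all. The list itself was drawn up with results of these arrays in view, among them the lower Scgn signal after Hes3 siRNA in DC, so counts of members describe the list and are not independent evidence of its direction. The same holds for the p-values of Scgn in that comparison.

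In the beta cell, glucose metabolism raises ATP, which closes the ATP-sensitive potassium channel and depolarizes the membrane. Voltage-gated calcium channels then open, and the calcium that enters triggers insulin release, while buffers, sensors and the pumps of the endoplasmic reticulum shape the calcium signal.

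RNA came from MIN6, an insulin-producing line derived from a mouse insulinoma and widely used in place of beta cells. All cultures were first kept in medium with 15% fetal calf serum, seeded at 50000 cells per well, and transfected with 2 uM siRNA. The siRNA targeted Hes3, which encodes a repressor of transcription, or had a scrambled sequence, and cells were assayed 12 to 24 hours later. Classic Conditions (CC) were medium with serum at 20% oxygen. Defined Conditions (DC) were medium with no serum and 5% oxygen, so serum and oxygen changed together and cannot be told apart. The 4 groups were Hes3 siRNA in CC (2 arrays), scrambled siRNA in CC (2 arrays), Hes3 siRNA in DC (4 arrays, numbered 1, 2, 5 and 7) and scrambled siRNA in DC (4 arrays). The labels place the samples of each group in a single experiment on one transformed line, so p-values measure only the spread between these samples, which may be technical. The question posed by the series was how Hes3 knockdown altered expression under these culture conditions.

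Hes3 itself showed no lower signal after its siRNA. Its log2 fold change against scrambled siRNA was 0.20 ± 0.109 (SE) in CC and 0.15 ± 0.0767 (SE; limma adjusted p = 0.114) in DC, so groups are named by their labels, and their differences are not taken to follow from reduced Hes3 mRNA. Its probe set was dim, with group means from 7.02 to 7.34. Genes of similar signal (its bin among those given below) had medians of 0.05 in CC and 0.21 in DC. Whether the probe set reports the knockdown was not tested. Beta cell markers were bright, with 14 of 16 measured above the median gene, while Slc2a2, the glucose transporter, and Ucn3, a marker of mature beta cells, lay at the 39.4th and 32.4th percentiles. Above the median gene lay 1 of 6 acinar, 2 of 5 duct, 3 of 9 fibroblast and 1 of 9 macrophage and endothelial markers. Endocrine and neuronal markers were brighter, with 3 of 4 alpha cell, 4 of 6 delta and PP cell and 5 of 8 neuron markers above it, among them the hormone genes Gcg and Sst (99.2nd and 98.4th percentiles) and Snap25, Map2 and Syn1 (99.4th, 98.7th and 97.6th). The number of arrays limits the precision. DC arrays 1 and 5 labelled Hes3 siRNA had 34.8 and 29.2 on the first principal component, against 15.6 and 12.8 for arrays 2 and 7 of their group, and CC scrambled array 2 had -32.8, against -7.96 for array 1. Results of members that rest on these arrays are given with and without them. With genes in 10 bins by mean signal, the median log2 fold change between the siRNA labels in DC ran from 0.21 in the fourth bin to -0.15 in the brightest, so members are set beside the median of their own bin.

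The members that differed most were the calcium-binding genes. Calb1 signal was lower in DC than in CC with either siRNA, by up to 3.89-fold, and Scgn was 1.79-fold higher in DC than in CC with scrambled siRNA. In DC, Scgn, Calb1 and Cacna2d1 fell in the arrays labelled Hes3 siRNA. Kcnj11, Cacna1c and Atp2a3 passed the test in 0 of the 5 comparisons.

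Counts of members were as follows, with p-values adjusted over all 19938 genes in limma and a threshold of 0.05. For the siRNA labels in DC, 3 of 9 members passed, all lower, where 47.2% of all genes passed (28.9% higher and 18.3% lower). For DC against CC with scrambled siRNA, 3 of 9 passed (Trpm5 and Scgn higher, Calb1 lower), where 8.54% of all genes did. For DC against CC with Hes3 siRNA, 4 of 9 passed (Abcc8 and Cacna1d higher, Cacna2d1 and Calb1 lower), where 40.1% of all genes did. The shares in both comparisons that hold the DC arrays labelled Hes3 siRNA were thus near that of all genes. For the siRNA labels in CC, 0 of 9 passed, as 0% of all genes did. At an unadjusted p under 0.05 there were 0 members and 415 genes. The difference of the DC-CC change between the siRNA labels was passed by 0 members and 0% of genes, with 3 members and 3471 genes at an unadjusted p under 0.05. Scaling moved the split of all calls: for the siRNA labels in DC, 61.3% of calls were higher as deposited, 59.0% after quantile normalization, 36.6% after centring arrays on their median and 39.4% after cyclic loess. With Hes3 siRNA, the share of DC-CC calls that were higher was 53.0%, 40.7%, 17.3% and 36.5% in the same order. Each DC-CC comparison shares its DC arrays with the comparison of siRNA labels in DC, so their values are not independent.

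Separation of the arrays gave similar counts. Between the siRNA labels in DC, 3 members had groups that did not overlap, all lower, where 40.9% of all genes did not overlap (17% lower). From CC to DC with scrambled siRNA there were 3 (2 higher and 1 lower; 27.9% of genes), and with Hes3 siRNA 4 (2 higher and 2 lower; 61.8% of genes, 38.4% higher and 23.4% lower). Between the labels in CC there were 2, Trpm5 higher and Cacna1c lower, where 26.9% of genes did not overlap (13.9% higher and 13.1% lower).

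**Figure D1:**
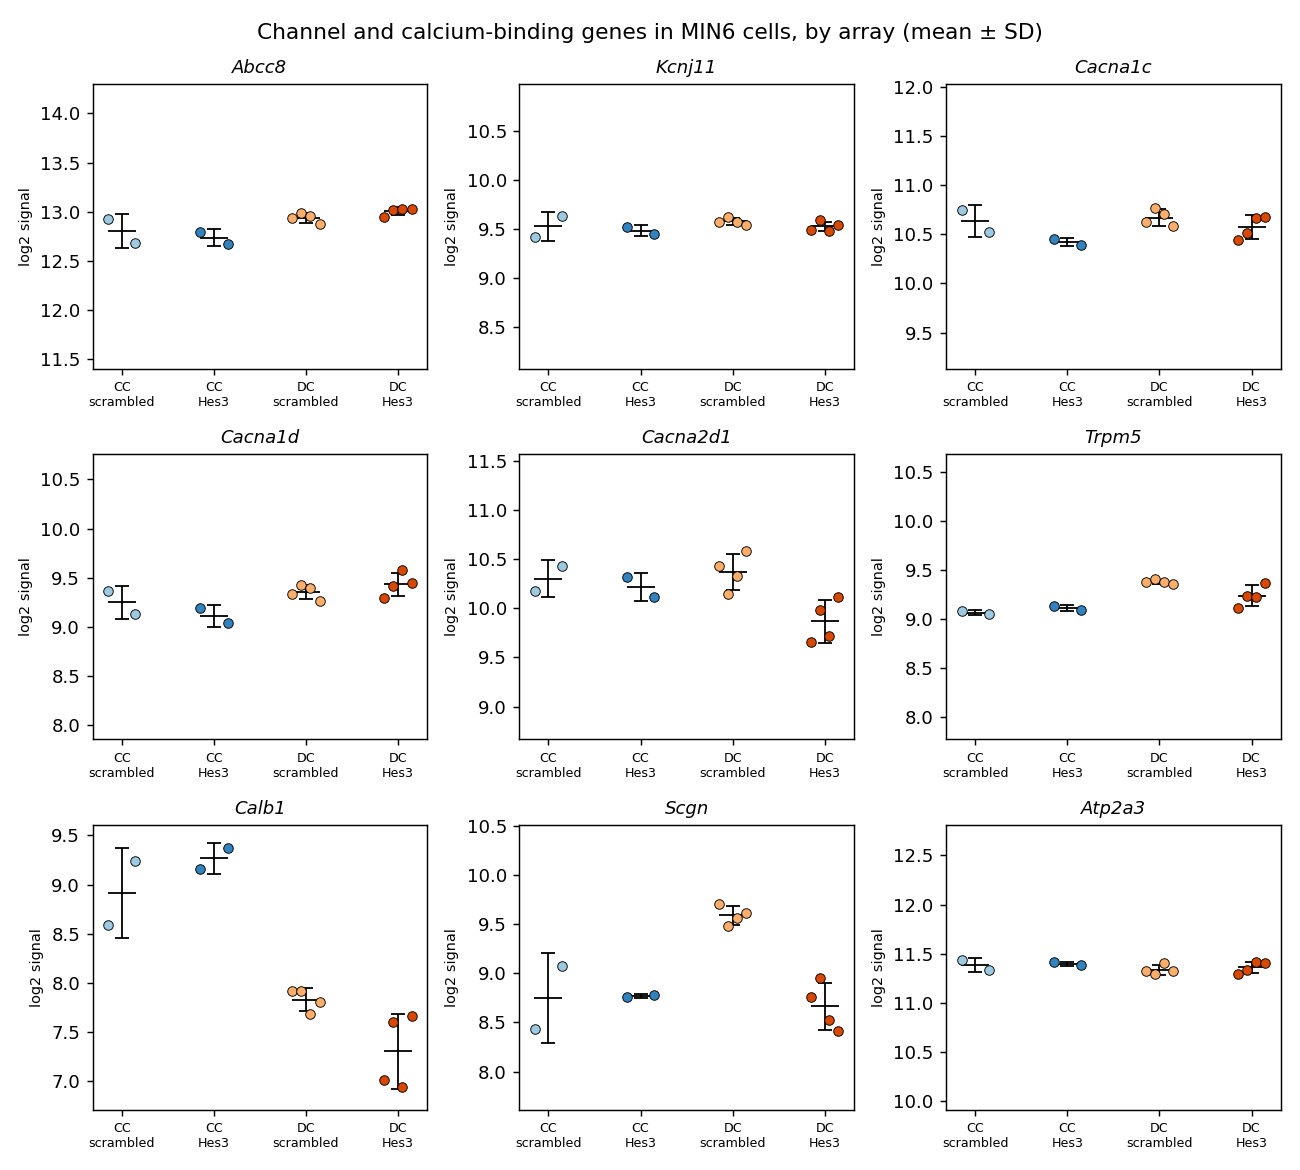
Log2 signal of the 9 members on each array, by group (points, 2 arrays per CC group and 4 per DC group; the wide bar is the mean and the error bar the SD), on vertical axes of similar span that are centred on each gene. Calb1 falls from 9.27 and 8.91 in the CC groups to 7.83 and 7.31 in the DC groups, the 4 DC scrambled arrays lie above all others for Scgn, and Kcnj11 and Atp2a3 stay nearly level.

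Scgn encodes secretagogin, an EF-hand calcium sensor of endocrine cells that takes part in hormone secretion. Its log2 signal was 9.71, 9.48, 9.56 and 9.62 in DC scrambled arrays 1 to 4, and 8.76, 8.95, 8.53 and 8.41 in DC arrays 1, 2, 5 and 7 labelled Hes3 siRNA. In CC it was 8.43 and 9.08 with scrambled siRNA and 8.76 and 8.78 with Hes3 siRNA. The DC scrambled arrays were thus the highest of all 12 and overlapped with no other group, whereas the other groups overlapped with each other. The fall between the siRNA labels in DC was known when Scgn was listed, so its p-values are not independent evidence. Against the scrambled arrays, Scgn fell by 0.93 ± 0.125 on the log2 scale in DC (SE; 1.90-fold lower; limma adjusted p = 0.00168), where the median gene of its signal bin had -0.06. Without DC arrays 1 and 5 it fell by 0.91 ± 0.157 (limma adjusted p = 0.0302). With scrambled siRNA it rose by 0.84 ± 0.153 from CC to DC (1.79-fold; limma adjusted p = 0.00228), and with Hes3 siRNA the change was -0.10 ± 0.153 (adjusted p = 0.577). The rise was 0.51 (adjusted p = 0.0376) without CC scrambled array 1, the lower of the pair. The difference between those changes was -0.94 ± 0.217, with an unadjusted limma p of 0.000523 and an adjusted p of 0.177. With single arrays left out, that difference ran from -1.27 to -0.62. The former was without CC scrambled array 2, the higher of the pair, which leaves a single array in that group. In bulk RNA, fewer cells of a type and less RNA per cell cannot be told apart.

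Markers of other cell types moved in the same DC comparison of siRNA labels. Of the measured markers, 6 of 6 for acinar cells, 7 of 9 for fibroblasts, 4 of 6 for delta and PP cells, 3 of 5 for duct cells and 4 of 9 for macrophages and endothelium were higher in the arrays labelled Hes3 siRNA, with 0 lower, where 28.9% of all genes were higher. Of 4 alpha cell markers 2 were higher, of 8 neuron markers 3 were higher and 3 lower, and of 16 beta cell markers 2 were higher and 4 lower. Median log2 fold changes were 0.30 for the acinar, 0.27 for the fibroblast and 0.16 for the macrophage and endothelial list, where the signal bins of their genes had medians of 0.20, 0.19 and 0.21 (the median over each list). They were 0.23 for the delta and PP, 0.27 for the duct and 0.15 for the alpha cell list, against bin medians of 0.05, 0.10 and -0.05. For the neuron and beta cell lists they were -0.05 and -0.10, against 0.05 and -0.15. The mean log2 level of the acinar list ran from 7.29 to 7.44 over the DC scrambled arrays and from 7.53 to 7.77 over those labelled Hes3 siRNA. For the fibroblast list it ran from 7.47 to 7.59 and from 7.67 to 7.89, and for the beta cell list from 11.55 to 11.61 and from 11.43 to 11.52. The part of the markers' shift in the values of the members was not tested. Marker counts without DC arrays 1 and 5 labelled Hes3 siRNA, or under other scalings, are not given here. Over all genes, leaving out those arrays cut the calls in this comparison from 9408 to 331. The share of calls that were higher went from 61.3% to 14.8%.

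Calb1 encodes calbindin, a cytosolic EF-hand protein that buffers calcium. Its log2 signal was 9.16 and 9.37 in the CC arrays labelled Hes3 siRNA and 8.59 and 9.24 in the CC scrambled arrays. It was 7.92, 7.92, 7.68 and 7.81 in the DC scrambled arrays, and 7.01, 7.61, 6.94 and 7.66 in DC arrays 1, 2, 5 and 7 labelled Hes3 siRNA. All CC arrays thus lay above all DC arrays, the CC groups overlapped, and in DC each scrambled array lay above each array labelled Hes3 siRNA, by 0.02 at the closest. Over the 12 arrays the SD of Calb1 was 0.83, at the 99.9th percentile of all genes. With scrambled siRNA it fell by 1.08 ± 0.194 on the log2 scale from CC to DC (SE; 2.12-fold; limma adjusted p = 0.00193), and without CC scrambled array 2 it fell by 0.76 (adjusted p = 0.0683). With Hes3 siRNA it fell by 1.96 ± 0.194 (3.89-fold; limma adjusted p = 5.70e-06), which ranked 7 from the lowest of all genes, and without DC arrays 1 and 5 the change was -1.63 ± 0.157 (adjusted p = 2.87e-05). Between the siRNA labels in DC it fell by 0.53 ± 0.158 (limma adjusted p = 0.0166), against a median of 0.19 in its signal bin. That call rests on arrays 1 and 5, the lowest of their group: the change was -0.43 (adjusted p = 0.0577) without array 1, -0.40 (0.0618) without array 5 and -0.20 ± 0.136 (0.332) without both. In CC the change between the labels was 0.35 ± 0.224 (adjusted p = 0.9996). The DC-CC change differed between the labels by -0.88 ± 0.274 (limma unadjusted p = 0.00575, adjusted p = 0.198). With single arrays left out, that difference ran from -1.20 to -0.55. The former was without CC scrambled array 2, which leaves a single array in that group.

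Cacna2d1 encodes an alpha2-delta subunit, an auxiliary protein that helps voltage-gated calcium channels reach the cell surface. Its log2 signal was 10.43, 10.14, 10.33 and 10.58 in the DC scrambled arrays and 9.66, 9.98, 9.71 and 10.11 in DC arrays 1, 2, 5 and 7 labelled Hes3 siRNA. The CC values were 10.17 and 10.43 with scrambled siRNA and 10.32 and 10.12 with Hes3 siRNA. All 8 arrays of the other groups were above the 4 DC arrays labelled Hes3 siRNA, although array 7 lay within 0.01 of the lowest CC array. In DC it fell by 0.50 ± 0.109 on the log2 scale between the siRNA labels (SE; 1.42-fold; limma adjusted p = 0.00484), with a bin median of -0.15. Without arrays 1 and 5 the change was -0.32 ± 0.111 (adjusted p = 0.0966). From CC to DC the log2 change was 0.07 ± 0.134 with scrambled siRNA (adjusted p = 0.861) and -0.35 ± 0.134 with Hes3 siRNA (limma adjusted p = 0.0479), a call close to the threshold that was lost in 12 of 23 alternatives and was -0.17 ± 0.129 (adjusted p = 0.360) without arrays 1 and 5. The difference between these changes was -0.42 ± 0.189 (adjusted p = 0.274). Cacna2d1 was the 1 member with a second probe set, which gave -0.41 ± 0.0767 between the siRNA labels in DC (adjusted p = 0.0152 over all probe sets) and -0.33 ± 0.0939 from CC to DC with Hes3 siRNA (adjusted p = 0.0258).

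**Figure D2:**
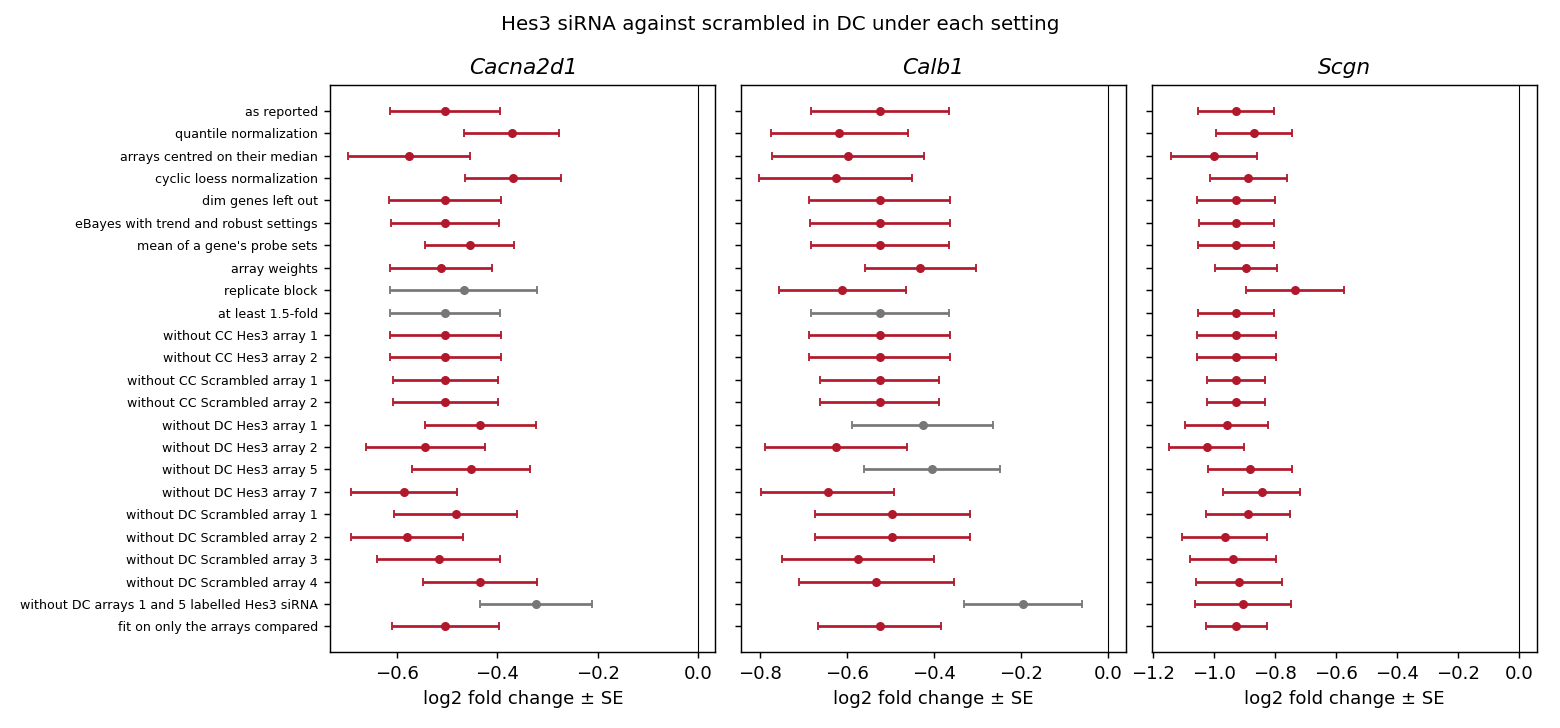
Log2 fold change (± SE) between the siRNA labels in DC for Cacna2d1, Calb1 and Scgn as reported and under each of 23 alternatives (red points passed the test, grey did not). Scgn stays red throughout, Calb1 turns grey without array 1, array 5 or both and with the minimum fold, and Cacna2d1 with the replicate block, the minimum fold and without arrays 1 and 5. With the replicate block, only DC arrays 1 and 2 of each label set the difference.

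The pore-forming subunits of the L-type calcium channels, Cacna1c and Cacna1d, carry most of the calcium current of the beta cell. Log2 signal of Cacna1d was 9.19 and 9.04 in the CC arrays labelled Hes3 siRNA and 9.29, 9.42, 9.58 and 9.45 in the corresponding DC arrays 1, 2, 5 and 7, with no overlap. With scrambled siRNA it was 9.37 and 9.13 in CC and 9.34, 9.42, 9.40 and 9.26 in DC, where the groups overlapped. Cacna1d rose from CC to DC with Hes3 siRNA by 0.32 ± 0.0914 (SE; 1.25-fold; limma adjusted p = 0.0145, bin median -0.12), and the change with scrambled siRNA was 0.11 ± 0.0914 (adjusted p = 0.620). Centring arrays on their median gave 0.21 (adjusted p = 0.0757) for the former, the replicate number as a block gave 0.24 (0.136), and leaving out CC array 2 labelled Hes3 siRNA gave 0.24 (0.166). Cacna1c ran from 10.39 to 10.77 over the 12 arrays. Its CC arrays labelled Hes3 siRNA (10.45 and 10.39) were below the CC scrambled arrays (10.75 and 10.52), with a log2 change of -0.21 ± 0.103 (adjusted p = 0.9996). From CC to DC with Hes3 siRNA its change was 0.15 ± 0.0895 (adjusted p = 0.175), which became 0.33 after quantile normalization (0.0215) and after cyclic loess (0.0236).

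Abcc8 encodes the sulfonylurea receptor, the regulatory subunit of the ATP-sensitive potassium channel, and Kcnj11 encodes its pore. Log2 signal of Abcc8 was 12.80 and 12.67 in the CC arrays labelled Hes3 siRNA and 12.95, 13.02, 13.03 and 13.03 in the corresponding DC arrays. With scrambled siRNA it was 12.93 and 12.68 in CC and 12.93, 12.99, 12.96 and 12.87 in DC. The groups did not overlap with Hes3 siRNA and overlapped with scrambled siRNA. It rose from CC to DC by 0.27 ± 0.0775 with Hes3 siRNA (SE; 1.21-fold; limma adjusted p = 0.0146), where the median of its bin was -0.22, and the change with scrambled siRNA was 0.13 ± 0.0775 (adjusted p = 0.390). The rise was 0.49 after cyclic loess. It did not pass after centring arrays on their median (0.16, adjusted p = 0.0910), with the replicate number as a block (0.25, 0.115) or without CC array 2 labelled Hes3 siRNA (0.21, 0.163). The difference between these changes was 0.14 ± 0.110 (adjusted p = 0.485).

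Kcnj11 varied little. Its log2 signal lay between 9.42 and 9.63 over all 12 arrays and its SD of 0.0657 was at the 4.26th percentile of genes. Its 4 group means ran from 9.48 to 9.58, every neighbouring pair overlapped, and the 95% interval of the log2 change between the siRNA labels in DC ran from -0.18 to 0.07. The correlation of Abcc8 with Kcnj11 over the 12 arrays was 0.06, whereas that of Abcc8 with Cacna1d was 0.94 (0.88 for deviations from group means) and that of Cacna1c with Cacna1d 0.72 (0.89). These correlations are descriptions over arrays that share groups and scaling.

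Trpm5 encodes a cation channel that opens when calcium rises and passes monovalent ions. Its log2 signal in CC was 9.08 and 9.05 with scrambled siRNA and 9.13 and 9.09 with Hes3 siRNA. In DC it was 9.38, 9.41, 9.37 and 9.35 in scrambled arrays 1 to 4 and 9.12, 9.24, 9.23 and 9.37 in arrays 1, 2, 5 and 7 labelled Hes3 siRNA. All DC scrambled arrays were above all CC arrays, and the DC arrays labelled Hes3 siRNA overlapped with both the DC scrambled arrays and the CC arrays labelled Hes3 siRNA. Trpm5 rose from CC to DC with scrambled siRNA by 0.31 ± 0.0729 (SE; 1.24-fold; limma adjusted p = 0.0118, bin median -0.04). Without CC scrambled array 2 the change was 0.30 (adjusted p = 0.110). With Hes3 siRNA it was 0.12 ± 0.0729 (adjusted p = 0.166), which passed after quantile normalization (0.20, adjusted p = 0.0330) and cyclic loess (0.19, 0.0362). Between the siRNA labels in DC the change was -0.14 ± 0.0595 (adjusted p = 0.0622), and it passed after centring arrays on their median (-0.21, adjusted p = 0.0150) and without DC array 7 labelled Hes3 siRNA (-0.18, 0.0180).

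Atp2a3 encodes a SERCA pump, which returns calcium from the cytosol to the endoplasmic reticulum. Its log2 signal ran from 11.29 to 11.43, its SD was 0.0512, which only 1.38% of genes undercut, and all neighbouring groups overlapped. The 95% interval of its change between the siRNA labels in DC ran from -0.09 to 0.15, and that of its DC-CC change from -0.20 to 0.10 with scrambled siRNA and from -0.18 to 0.11 with Hes3 siRNA. Quantile normalization moved the latter change from -0.04 to 0.16, and cyclic loess did the same.

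**Figure D3:**
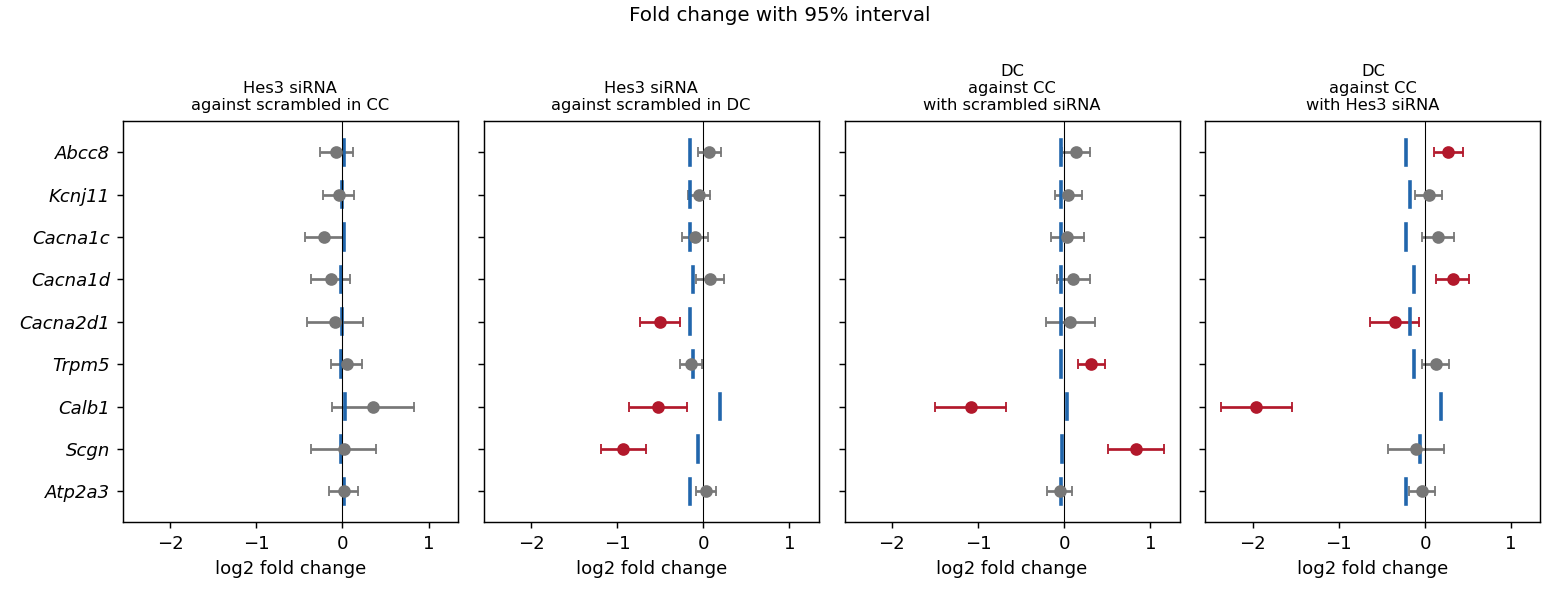
Log2 fold change with 95% interval of the 9 members in 4 comparisons (red passed the limma test, grey did not; the blue tick is the median of all genes in the same signal bin). Calb1 at -1.96 with Hes3 siRNA lies farthest from its bin median, and no interval in the CC panel excludes 0.

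The genes most alike each member over the 12 arrays were found by Pearson correlation, as a description with no test, since the arrays share groups and scaling. For Scgn they were Maob, which encodes monoamine oxidase B (r = 0.990), Glul, which encodes glutamine synthetase (0.973), and the neuronal calcium sensor gene Vsnl1 (0.968). For Calb1 they were the elongation factor gene Ell2 (0.993), Tmco1, which encodes a calcium channel of the endoplasmic reticulum (0.992), and Ergic2 (0.992). For Cacna2d1 they were Slc44a3 (0.978), Mettl14 (0.959) and Ptgr2 (0.959). Trpm5 was most like Nbea (0.952), Clcn6 (0.951) and Trappc9 (0.941), Cacna1d most like Celsr3 (0.961), and Cacna1c most like Ift122 (0.951). For Kcnj11 and Atp2a3, which hardly varied, the highest values were 0.846 (Ankmy2) and 0.836 (Fam168b). Calb1 and Scgn, both EF-hand genes, had r = -0.06 with each other.

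The 145 measured genes of 5 lists of other channels, pumps and calcium-binding proteins give the setting of the members. Between the siRNA labels in DC, 39 were higher and 36 lower, where 28.9% and 18.3% of all genes were. Without arrays 1 and 5, 2 of the 145 passed, Vsnl1 (-0.96) and Slc12a2 (-0.46), and 331 of all genes did. The 75 became 49 without DC scrambled array 1 and also without DC array 5 labelled Hes3 siRNA alone. Counts also moved with scaling, and the order given below for each list is as deposited, after quantile normalization, after centring and after cyclic loess.

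Of 34 potassium channel genes, 16 were higher and 3 lower between the siRNA labels in DC (28.9% and 18.3% of all genes). Their median log2 fold change was 0.19, and the signal bins they lie in had a median of 0.18. Above the median of their own bin lay 24 of 34. Counts of higher and lower genes under the scalings were 11 and 2, 10 and 5, and 7 and 3. Kcnmb4, an accessory subunit of the large-conductance calcium-activated channel, rose by 0.37 ± 0.0728, Kcnn4, an intermediate-conductance calcium-activated channel, by 0.35 ± 0.0776, and Kcnq1, a delayed rectifier, by 0.32 ± 0.0721. Another accessory subunit, Kcnmb2, fell by 0.32 ± 0.0758. From CC to DC, Kcnc2, a fast delayed rectifier, rose by 0.49 ± 0.0873 with scrambled siRNA and 0.43 ± 0.0873 with Hes3 siRNA, and the background channel Kcnk10 fell by 0.43 ± 0.0757 and 0.59 ± 0.0757. With scrambled siRNA 2 potassium channel genes were higher and 3 lower in DC (3.09% and 5.45% of all genes), and 1 and 1 without CC scrambled array 2. With Hes3 siRNA 8 were higher and 3 lower (21.2% and 18.8% of all genes), which became 2 and 4 after centring, 2 and 3 without CC array 1 and 2 and 1 without CC array 2 labelled Hes3 siRNA. The 8 became 16 without DC array 7, 5 without DC array 1 and 4 without DC array 5 labelled Hes3 siRNA. In the comparison of siRNA labels in DC, the 16 became 9 without DC scrambled array 1 and 10 without DC array 5 labelled Hes3 siRNA.

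Of 14 other voltage-gated calcium channel subunits, 6 were higher and 1 lower between the siRNA labels in DC, with 3 and 0, 4 and 2, and 1 and 0 under the scalings. Their median log2 fold change was 0.13, and the signal bins they lie in had a median of 0.19. Above the median of their own bin lay 10 of 14. Cacna2d4 and Cacna2d2, paralogs of Cacna2d1, rose by 0.32 ± 0.0692 and 0.28 ± 0.0833, where the medians of their signal bins were 0.19 and 0.21. Cacna2d2 did not pass after quantile normalization (0.18) or cyclic loess (0.11). The largest changes in the list from CC to DC belonged to Cacna1e, the pore of the R-type channel, which rose by 1.04 ± 0.0996 with scrambled siRNA (2.05-fold; limma adjusted p = 9.49e-06) and by 0.84 ± 0.0996 with Hes3 siRNA. Cacna1b, the pore of the N-type channel, rose by 0.51 ± 0.0868 and 0.54 ± 0.0868. Both passed under each of the 3 scalings.

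Sodium, TRP, HCN and chloride channel genes were split. Of 28, 6 were higher and 8 lower between the siRNA labels in DC, with 2 and 5, 3 and 9, and 0 and 6 under the scalings. Their median log2 fold change was -0.05, and the signal bins they lie in had a median of -0.06. Above the median of their own bin lay 13 of 28. Trpm7, a channel with a kinase domain, fell by 0.64 ± 0.125, Slc12a2, a chloride importer, by 0.42 ± 0.0667 and Clcn3 by 0.37 ± 0.0759.

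Among 32 genes of calcium pumps, exchangers and stores, 7 were higher and 9 lower between the siRNA labels in DC, whereas quantile normalization gave 6 and 3, centring 1 and 12, and cyclic loess 3 and 3. Their median log2 fold change was -0.02, and the signal bins they lie in had a median of -0.12. Above the median of their own bin lay 18 of 32. Micu3, a regulator of the mitochondrial calcium uniporter, fell by 0.63 ± 0.127, and Atp2c1, the calcium pump of the Golgi, by 0.47 ± 0.0802. From CC to DC, 3 were higher and 8 lower with scrambled siRNA, where 3.09% and 5.45% of all genes were, and 2 higher and 15 lower with Hes3 siRNA, where 21.2% and 18.8% were. The list medians were -0.10 and -0.12 in that order, where the signal bins had medians of -0.04 and -0.12. Orai2, of store-operated calcium entry, fell by 0.92 ± 0.107 and 0.82 ± 0.107, and Tmco1 by 0.55 ± 0.102 and 0.90 ± 0.102. Ryr2, a calcium release channel, fell by 0.75 ± 0.111 with scrambled siRNA. Without CC scrambled array 2, 0 were higher and 4 lower with scrambled siRNA, and without CC array 1 labelled Hes3 siRNA, 0 were higher and 10 lower with Hes3 siRNA.

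Of 37 calcium buffers and sensors, 4 were higher and 15 lower between the siRNA labels in DC, with 3 and 8, 2 and 19, and 1 and 6 under the scalings. Their median log2 fold change was -0.10, and the signal bins they lie in had a median of -0.15. Above the median of their own bin lay 13 of 37. The largest decrease was that of Vsnl1 (-0.87 ± 0.169), followed by Efcab1 (-0.73 ± 0.157) and the neuronal calcium sensor Hpca (-0.59 ± 0.126). Vsnl1 rose from CC to DC with scrambled siRNA by 1.00 ± 0.207, as did Hpca by 0.72 ± 0.154, and the other changes past the test there were decreases of the endoplasmic reticulum proteins Rcn2 (-0.56 ± 0.112), Calu (-0.46 ± 0.124) and Calr (-0.34 ± 0.0744). Without CC scrambled array 2, 2 were higher and 0 lower, and without array 1, 0 and 6. With Hes3 siRNA, 0 of 37 were higher and 15 lower in DC than in CC (21.2% and 18.8% of all genes), with 0 higher under each scaling. The median log2 fold change there was -0.16, where the signal bins of these genes had a median of -0.17. Of the 37, 11 lay above the median of their own bin. The 15 became 8 without CC array 2 labelled Hes3 siRNA, and 4 were higher and 17 lower without DC array 7. For the siRNA labels in DC, the 15 lower became 10 without DC array 5 labelled Hes3 siRNA. From CC to DC with Hes3 siRNA, Rcn2 fell by 1.00 ± 0.112, Efcab1 by 0.91 ± 0.192 and Calu by 0.84 ± 0.124.

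**Figure D4:**
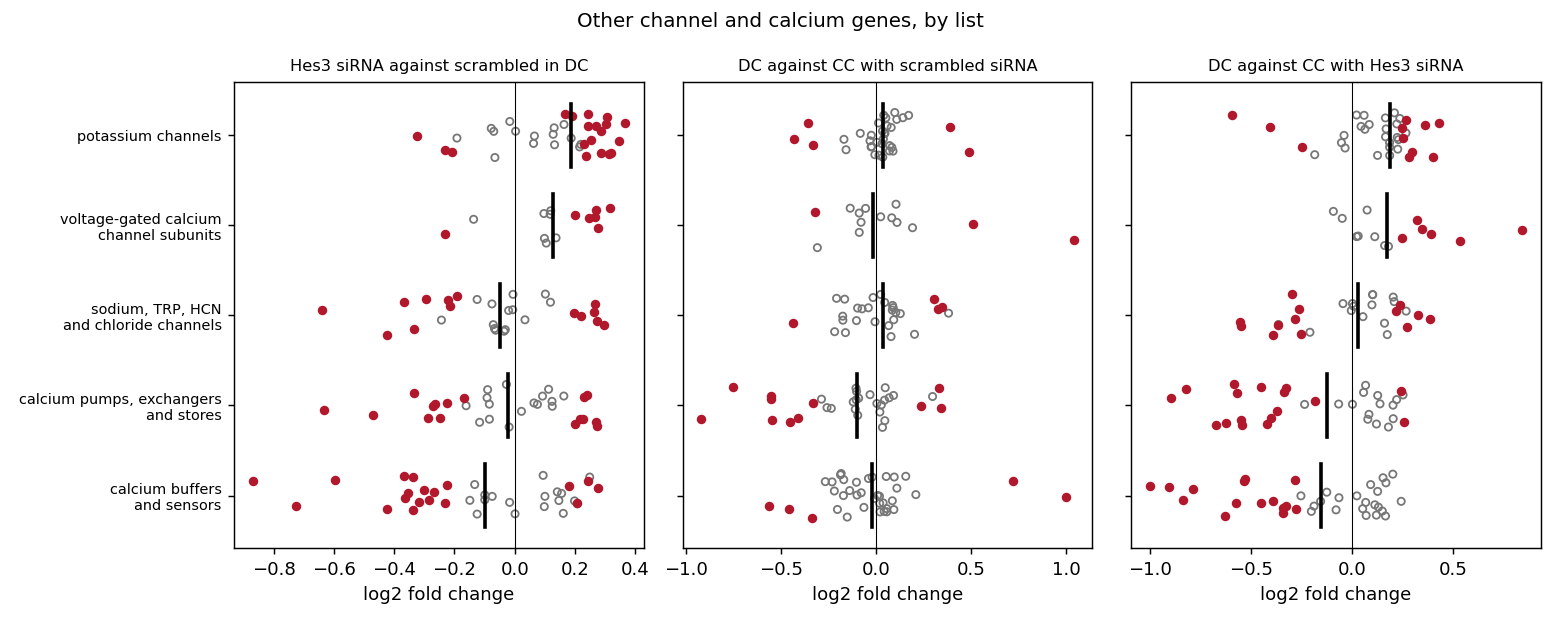
Log2 fold change of each measured gene in 5 lists, in 3 comparisons (filled red points passed the limma test, open grey points did not; the black bar is the list's median). Most potassium channel points in the first panel lie right of 0 (median 0.19), and the red points of calcium buffers and sensors in the last panel all lie left of 0. The signal bins of these lists had medians of 0.18 and -0.17 there.

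Promoter sequence is shown for members whose signal differed between groups, where a window was listed. None was listed for Calb1 and Abcc8, which also differed, or for Kcnj11. RefSeq windows of 250 bases upstream of an annotated start (GRCm38.p6) were listed for 6 of 9 members, in 9 windows. They were searched on both strands for CACGNG (class C) and CACNAG (N-box), which Hes factors are known to bind, for the E-box CANNTG, and for ACGTG and GCGTG, the core of hypoxia response elements. These motifs can overlap, as CACGTG holds a class C site, an E-box and ACGTG. Of all 32851 windows, 23.5% held CACGNG, 36.7% CACNAG, 66.2% CANNTG, 16.6% ACGTG and 28.2% GCGTG. In the sequences below, written 5′ to 3′ on the strand of the gene, capitals mark each match.
Scgn, chr13:23991215-23991464, minus strand: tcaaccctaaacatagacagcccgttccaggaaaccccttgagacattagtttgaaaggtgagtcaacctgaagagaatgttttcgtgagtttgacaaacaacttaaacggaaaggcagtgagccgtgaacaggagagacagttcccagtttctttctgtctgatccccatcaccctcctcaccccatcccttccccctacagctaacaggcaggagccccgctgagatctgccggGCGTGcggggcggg
Cacna2d1, chr5:15934441-15934690, plus strand: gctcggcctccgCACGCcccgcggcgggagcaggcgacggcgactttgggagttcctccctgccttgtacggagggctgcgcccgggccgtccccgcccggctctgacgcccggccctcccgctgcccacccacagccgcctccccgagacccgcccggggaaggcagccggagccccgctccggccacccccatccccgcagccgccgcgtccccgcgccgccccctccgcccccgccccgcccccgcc
Trpm5, chr7:143094643-143094892, minus strand: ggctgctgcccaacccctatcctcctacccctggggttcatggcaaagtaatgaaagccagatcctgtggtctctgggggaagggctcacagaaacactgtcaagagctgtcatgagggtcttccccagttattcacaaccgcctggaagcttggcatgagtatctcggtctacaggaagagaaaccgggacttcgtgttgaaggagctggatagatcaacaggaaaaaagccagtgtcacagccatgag
Cacna1d, second listed window, chr14:30353487-30353736, minus strand: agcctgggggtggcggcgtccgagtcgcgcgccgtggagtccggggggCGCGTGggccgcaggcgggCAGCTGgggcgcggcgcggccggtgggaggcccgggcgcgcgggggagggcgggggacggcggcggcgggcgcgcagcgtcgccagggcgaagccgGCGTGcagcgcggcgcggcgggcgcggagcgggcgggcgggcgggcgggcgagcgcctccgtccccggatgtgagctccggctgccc

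The Scgn window held 1 match, GCGTG at 14 to 10 bases before the start, and 0 class C, N-box or E-box matches. Cacna2d1, which like Scgn fell between the siRNA labels in DC, held 1 GCGTG on the opposite strand at 238 to 234 bases before the start, and Trpm5 held 0 matches. Cacna1d had 2 listed windows, of which the second lies downstream of the first start, within the span of the longer transcript. The first (chr14:30491157-30491406) held 0 matches and had a GC content of 39.6%. The second, printed because it held matches, had a class C match at 202 to 197 bases before the start, on the opposite strand and overlapping a GCGTG, an E-box at 183 to 178 bases and another GCGTG at 87 to 83 bases. GC content was 53.2% for Scgn, 52.8% for Trpm5, 82.4% for Cacna2d1 and 86.4% for the second Cacna1d window, where the median of all windows was 52.4%. A match is a run of letters and not a measured binding site.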

How the data were processed

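RNA was measured on 12 Affymetrix whole-transcript arrays, labelled from 250 ng of total RNA per the labels' protocols. The deposited table gives 1 log2 value per probe set and array for 35556 probe sets. The log2 scale is read from the values (3.94 to 14.4), and the authors' background correction, summarization and normalization are not given in the sources used here, so a shift shared by bright or dim genes cannot be traced to its source. Array medians ran from 7.78 to 7.96. The platform annotation of 2016 gave 21789 probe sets 1 symbol, 1621 several and 12146 none. Of the first, the brightest per gene left 19938 genes, and dim genes were kept.

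Group means over all 12 arrays were compared with limma 3.58.1 in R 4.3.3 (lmFit, eBayes; 8 residual and 7.62 prior degrees of freedom; two-sided p, Benjamini-Hochberg over all genes), and the script was tested on simulated data. The members, the 5 lists (157 entries, 145 measured), the markers and the rules were chosen with earlier results of these data known. The rule named the 9 members, Hes3, from each list and direction up to 3 called genes with the largest change (otherwise the 1 with the smallest p), and the 3 genes most correlated with each member. The 23 alternatives per result were 3 scalings, a filter on genes under the 40th percentile, trend and robust eBayes, probe sets averaged per gene, a replicate block, array weights, a 1.5-fold minimum, the compared arrays alone, DC arrays 1 and 5 labelled Hes3 siRNA left out together, and each array left out.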

Additional observations from a re-analysis of the deposited data

Results flagged for a closer look

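The log2 signal of Abcc8 in DC array 1 labelled Hes3 siRNA was 12.95, and the other 3 arrays of that group began at 13.02. The gap made up 0.83 of the group's range, just above the 95% critical value for 4 samples in Dixon's test. There were 18 such groups of 4 arrays (9 members in 2 groups), and chance marks about 1 in 20, so a single one is no more than chance gives.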

How the results depend on the processing

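Limits: 2 arrays per CC group, samples from a single experiment, and deposited values whose scaling is unknown. Of the 9 members, 0 changed direction under the 23 alternatives in a comparison that had called them. Scgn was listed with its fall in DC known, so its passes there are not independent evidence. Its rise with scrambled siRNA shares the DC scrambled arrays. Scgn passed in 23 of 23 for the siRNA labels in DC (-1.02 to -0.74) and for DC against CC with scrambled siRNA (0.51 to 1.16), and Calb1 in 23 of 23 for DC against CC with Hes3 siRNA (-2.08 to -1.63).

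Of 3 members called for the siRNA labels in DC, 1 passed with a minimum of 1.5-fold and 1 without DC arrays 1 and 5 (2 to 4 leaving out single arrays). Of 3 called for DC against CC with scrambled siRNA, single arrays left out gave 1 to 3, with 1 without CC scrambled array 2. Of 4 called with Hes3 siRNA, 2 passed after centring, 1 with the block and 1 at 1.5-fold, and 1 to 4 with single arrays left out, with 1 without CC array 2 labelled Hes3 siRNA. The interaction had 0 with all arrays, and gained calls only without CC scrambled array 2, where a single array was left in that group. Among the 145 list genes, the 75 calls for the siRNA labels in DC became 43 (quantile), 30 (loess) and 5 (block, and 1.5-fold), the 28 for scrambled siRNA 18 (array weights), 15 (block) and 5 (1.5-fold), and the 62 for Hes3 siRNA 36 (block) and 12 (1.5-fold). Single arrays left out gave 49 of the 75 (DC scrambled array 1, and DC array 5 labelled Hes3 siRNA), 10 of the 28 (CC scrambled array 2) and 36 and 30 of the 62 (CC arrays 1 and 2 labelled Hes3 siRNA), and 17 against 0 in the interaction (CC scrambled array 2). Over all genes, the 9408 became 5736 (quantile), 4297 (loess), 5436 (dim genes left out), 620 (block) and 196 (1.5-fold), the 1702 became 1054 (array weights), 804 and 347 (the last 2), and the 7986 became 5025, 5131, 4051 and 1103 (quantile, loess, block, 1.5-fold). Without DC arrays 1 and 5 the 9408 became 331 and the 7986 became 3631. Fits without a CC array leave a single array in that group, so the group's own spread no longer enters the test. Single arrays left out gave as few as 5754 of the 9408 (DC scrambled array 1; 6064 and 5881 without DC arrays 1 and 5 in turn), 742 of the 1702 (CC scrambled array 2) and 2357 of the 7986 (CC array 2 labelled Hes3 siRNA; 3410 without array 1), and the interaction rose from 0 to 2056 without CC scrambled array 2.

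Signs turned only for log2 changes that had not passed, and the cause was not tested. In CC, Atp2a3 gave -0.0053 (quantile) and -0.0071 (loess), and with single arrays left out the ranges were -0.036 to 0.0651 for Atp2a3, -0.192 to 0.0524 for Abcc8, -0.149 to 0.0606 for Kcnj11, -0.216 to 0.0474 for Cacna2d1, -0.308 to 0.34 for Scgn and -0.0057 to 0.406 for Hes3. In DC, Abcc8 gave -0.0045 and Atp2a3 -0.0429 (centring), Kcnj11 0.0715 and 0.0464 and Cacna1c 0.0467 and 0.0473 (quantile, loess), and Hes3 -0.0242 (loess). For DC against CC with scrambled siRNA, single arrays gave -0.0628 to 0.2003 for Cacna2d1, -0.0563 to 0.154 for Kcnj11, -0.0778 to 0.149 for Cacna1c, -0.0124 to 0.224 for Cacna1d and -0.1004 to 0.00065 for Atp2a3. With Hes3 siRNA, Kcnj11 gave -0.0692 (centring) and Atp2a3 0.163 and 0.162 (quantile, loess). In the interaction, Kcnj11 gave 0.0836 (quantile), 0.0679 (loess), 0.0129 (array weights) and 0.0302 (without DC arrays 1 and 5), with -0.112 to 0.0977 over single arrays, and Atp2a3 -0.062 (centring), with -0.0357 to 0.0653.

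Replicate numbers were shared by 2 arrays per pair of groups. The correlation of deviations between same-numbered arrays ran from -0.44 to 0.25. With 2 arrays per CC group the deviations mirror each other, so both CC pairs had to give the same value, 0.25. Arrays with different numbers were not compared, so these values cannot settle pairing, and the main fit did not pair the samples. Numbers 3, 4, 5 and 7 were each held by 1 DC array, so the block fitted those arrays exactly. The values of the DC groups under the block thus rest on arrays 1 and 2, and lost calls there cannot be read as an effect of pairing. With the replicate block, signs turned for Cacna1d in DC (-0.0279), Cacna2d1 with scrambled siRNA (-0.0146), Scgn with Hes3 siRNA (0.0882) and, in the interaction, Cacna1c (-0.0121) and Atp2a3 (-0.0037), and Cacna2d1 in DC gave -0.47 (adjusted p = 0.0696), Trpm5 with scrambled siRNA 0.33 (0.106) and, with Hes3 siRNA, Abcc8 0.25 (0.115), Cacna1d 0.24 (0.136) and Cacna2d1 -0.40 (0.0690).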

Other observations

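In the comparisons where no list gene passed, the named gene of each list was the one with the smallest p. For the siRNA labels in CC these were Kcnk10 (log2 fold change 0.23 ± 0.0875), the N-type channel gene Cacna1b (-0.16 ± 0.100), the sodium channel subunit Scn3b (-0.28 ± 0.114), phospholamban, Pln (0.27 ± 0.127), and Hpcal1 (0.18 ± 0.0913), each with a limma adjusted p of 0.9996. For the difference of the DC-CC change between the siRNA labels these were Ppp3cb, a catalytic subunit of calcineurin (-0.61 ± 0.146; limma adjusted p = 0.177), Slc12a2 (-0.45 ± 0.116; 0.177), Atp2c1 (-0.45 ± 0.139; 0.197), the calcium channel beta subunit Cacnb2 (0.34 ± 0.109; 0.200) and the small-conductance potassium channel Kcnn3 (0.30 ± 0.115; 0.226). Leaving out CC scrambled array 2 leaves a single array in that group. The differences were then -0.79 for Ppp3cb, -0.50 for Slc12a2, -0.63 for Atp2c1, 0.45 for Cacnb2 and 0.36 for Kcnn3.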
